A study of Mus musculus with 6 samples.

Results

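The genes described here are the insulin-like growth factor Igf1, the receptors Igf1r and Igf2r, the receptor substrate Irs1 and the 6 IGF-binding protein genes Igfbp2 to Igfbp7. They were selected by gene symbol with earlier results of these data known, and all 10 were found among the 20588 genes of the deposited table. RNA had been sequenced from muscle stem cells, the satellite cells from which adult muscle is repaired, of C57BL/6NJ mice aged 2 months, either wild type (WT, 3 libraries) or with a knockout of Pnpla2 (named Pnpla2PKO in the series text, PKO here, 3 libraries). Cells of both groups were sorted from hind limb muscles, grown for 7 days and then held in 2% horse serum for 16 h, a switch to low serum that sets off differentiation of myoblasts. Which part of Pnpla2 was deleted, how and in which cells, is not given in the sources used here. Whether replicate libraries represent different mice, different cultures or repeats of the same cells is not stated either, and the p-values then measure only how far these libraries differ, which may be technical spread.

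IGF1 and IGF2 are secreted growth factors that act mainly through the IGF1 receptor, a tyrosine kinase that passes the signal to IRS adaptor proteins and on to PI3K, AKT and mTOR. The IGF2 receptor has no kinase and carries IGF2 to lysosomes for breakdown. IGF-binding proteins hold IGFs outside the cell, prolonging their life or withholding them from the receptor, and are themselves cut by proteases such as PAPP-A and HTRA1. In muscle, IGFs drive both the proliferation and the differentiation of myoblasts, and IGFBP5 is made by differentiating myoblasts.

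Total counts per library ran from 15580176 to 18839151. Pnpla2, the gene of the triglyceride lipase ATGL, had 21.2, 38.5 and 33.7 CPM (counts scaled to library size with TMM factors) in WT 1 to WT 3 and 8.47, 16.0 and 15.5 CPM in PKO 1 to PKO 3. Every PKO library was below every WT library, with a mean at 42.8% of the WT level. The log2 fold change was -1.22 ± 0.31 (SE), with an adjusted p of 0.191 by edgeR's quasi-likelihood test and of 0.00796 by DESeq2. Over all 14025 genes tested, edgeR called 0 genes at an adjusted p under 0.05, which is 0% of them. At an unadjusted p under 0.05, 10.2% of genes were higher and 6.35% lower in PKO. DESeq2 called 4.73% of 16192 genes higher and 0.933% lower.

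All 6 binding-protein genes had a higher mean in PKO than in WT, and 3 of them, Igfbp3, Igfbp4 and Igfbp7, were called higher by DESeq2 but not by edgeR. Igfbp7 differed most, with an 11.6-fold higher mean in PKO, followed by Igfbp4 at 2.76-fold and Igfbp3 at 1.67-fold. The receptors Igf1r and Igf2r, the substrate Irs1 and the ligand Igf1 had overlapping groups, with mean differences of no more than 0.43 on the log2 scale in either direction. Of the 10 genes, edgeR called 0, against 0% of all genes tested. At an unadjusted p under 0.05, 4 were higher (Igfbp2, Igfbp3, Igfbp4 and Igfbp7), where 10.2% of all genes tested were, and 0 were lower, where 6.35% were. By DESeq2, 3 were higher and 0 lower, beside 4.73% and 0.933% of all genes. Every PKO library lay above every WT library for 2 of the 10, Igfbp3 and Igfbp7, as it did for 11.8% of all genes, and for 0 of the 10 it lay below, as it did for 9.7% of all genes. The median log2 fold change was 0.65 over the 10 genes and 0.76 over the 6 binding proteins, and -0.02 over all genes tested. It was above 0 for 7 of the 10, and for 6769 of the 14025 genes tested.

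**Figure D1:**
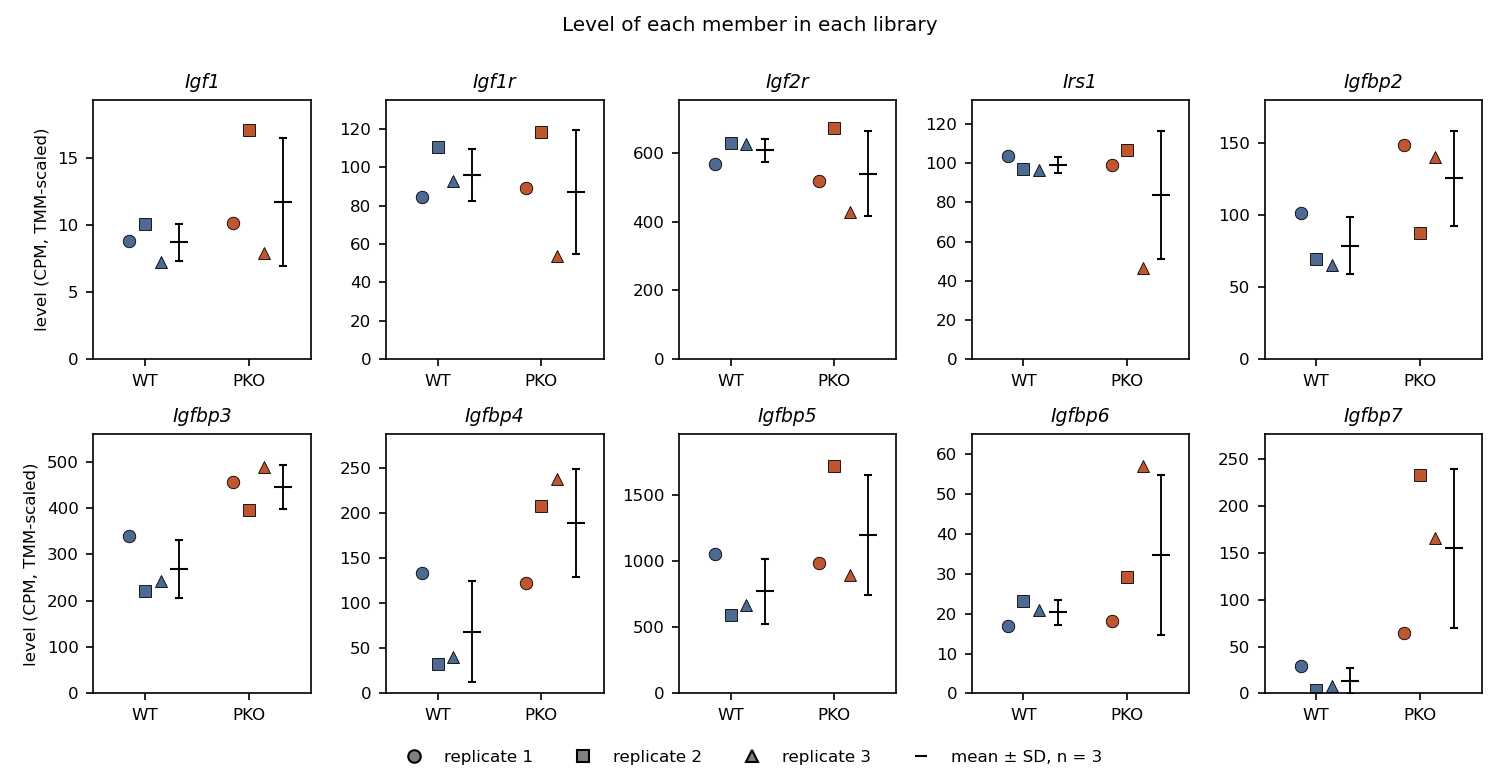
CPM (TMM-scaled) of each of the 10 genes in the 3 WT and 3 PKO libraries, 1 panel a gene, with points for libraries and bars for the mean ± SD (n = 3 per group). The PKO points of Igfbp3 and Igfbp7 all lie above the WT points, and in the other 8 panels the groups overlap.

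The promoters of Igfbp3, Igfbp4 and Igfbp7, the genes called by DESeq2, are shown as the 250 bases before the annotated start, 5′ to 3′ on the strand of the gene, from RefSeq on GRCm38.p6. The windows are chr11:7213924-7214173 on the minus strand for Igfbp3, chr11:99040994-99041243 on the plus strand for Igfbp4 and chr5:77408046-77408295 on the minus strand for Igfbp7. Capitals mark a TATA box (TATAAA) in Igfbp4 and GC boxes (GGGCGG, or CCGCCC on the other strand) in Igfbp7.
Igfbp3: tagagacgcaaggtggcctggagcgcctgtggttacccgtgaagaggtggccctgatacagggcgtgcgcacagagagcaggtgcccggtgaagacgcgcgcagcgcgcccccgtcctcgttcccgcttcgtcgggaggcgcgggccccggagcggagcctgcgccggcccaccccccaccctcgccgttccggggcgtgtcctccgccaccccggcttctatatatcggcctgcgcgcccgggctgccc
Igfbp4: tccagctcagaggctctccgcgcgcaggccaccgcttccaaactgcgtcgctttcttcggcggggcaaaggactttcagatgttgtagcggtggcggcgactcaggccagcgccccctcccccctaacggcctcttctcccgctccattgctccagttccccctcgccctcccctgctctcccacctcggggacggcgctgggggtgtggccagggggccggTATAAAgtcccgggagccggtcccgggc
Igfbp7: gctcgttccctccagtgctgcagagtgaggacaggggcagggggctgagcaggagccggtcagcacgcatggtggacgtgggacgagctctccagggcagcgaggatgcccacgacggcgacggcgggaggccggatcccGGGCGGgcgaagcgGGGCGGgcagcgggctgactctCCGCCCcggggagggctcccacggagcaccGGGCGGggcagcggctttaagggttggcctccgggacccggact

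All 3 windows were rich in G and C, at 73.2% for Igfbp3, 69.2% for Igfbp4 and 74.0% for Igfbp7, where the median of 32851 promoter windows was 52.4%. They held 32, 22 and 26 CpG dinucleotides in that order, beside a median of 6 over all windows. The 10 genes together had 11 windows, with a median G and C content of 69.2% and a median of 22 CpG dinucleotides; their G and C content ran from 49.6% in Igfbp6 to 77.6% in Igf1r. Searched on both strands, TATAAA was found in 12.4% of all windows and in 2 of the 11, those of Igfbp4 and Igfbp6. In Igfbp4 it lay 28 bases before the start, and in Igfbp6 148 bases before it, on the opposite strand. GGGCGG was found in 32.7% of all windows and in 5 of the 11: Igf1r, Igf2r, Igfbp2, Igfbp7 and Irs1. Igfbp7 held 4 such matches, the nearest 44 bases before the start. The AP-1 motif TGANTCA was found in 6.7% of all windows and in those of Igf1 and Igfbp2, and CCAAT in 33.8% of all windows and in those of Igf1 and Igfbp6. The Igfbp3 window had no match to any of these 4 motifs as spelled here. Near matches were not counted, such as the letters tatata close to the end of the Igfbp3 window. The matches describe these letters in these windows and were not tested for function.

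Igfbp7 (ENSMUSG00000036256, chr5:77349240-77408045, minus strand) encodes a secreted relative of the IGF-binding proteins with low affinity for IGFs, known from vessel walls and other stroma. It had 28.8, 3.86 and 7.39 CPM in WT 1 to WT 3 and 64.9, 233 and 166 CPM in PKO 1 to PKO 3. All PKO libraries were above all WT libraries, with WT 1 the highest of its group and PKO 1 the lowest of its own. Mean levels were 13.3 ± 13.5 CPM for WT and 155 ± 84.6 CPM for PKO (SD, n = 3 per group). The edgeR log2 fold change was 3.53 ± 0.81 (SE; 95% interval 1.62 to 5.44), with an unadjusted p of 0.0032 and an adjusted p of 0.184, and the DESeq2 adjusted p was 0.00832. Without WT 1 it was 4.76 with an edgeR adjusted p of 0.0259, and without PKO 1 it was 3.91 with an edgeR adjusted p of 0.0418. Its 3′ end overlaps that of Polr2b on the opposite strand by 85 bases. The strand setting of the counting is not given in the sources used here, and Polr2b had 1710 to 2414 counts per library.

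Igfbp4 (ENSMUSG00000017493, chr11:99041244-99054392, plus strand) encodes a binding protein that withholds IGFs from the receptor until PAPP-A cuts it. Its levels were 133, 32.2 and 40.4 CPM in WT 1 to WT 3, and 122, 208 and 238 CPM in PKO 1 to PKO 3. WT 2 and WT 3 were below all PKO libraries, while WT 1 was above PKO 1, so the groups overlapped. The WT mean was 68.6 ± 56.2 CPM and the PKO mean 189 ± 60.1 CPM (SD, n = 3 per group). The edgeR log2 fold change was 1.46 ± 0.56 (SE; 95% interval 0.15 to 2.77), with an adjusted p of 0.271, and the DESeq2 adjusted p was 0.0482. Without WT 1 the log2 fold change was 2.38 and the edgeR adjusted p 0.0148.

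Igfbp3 (ENSMUSG00000020427, chr11:7206086-7213923, minus strand), which encodes the main carrier of IGFs in blood, had 340, 222 and 243 CPM in WT 1 to WT 3 and 456, 395 and 489 CPM in PKO 1 to PKO 3. Every PKO library was above every WT library, the closest being WT 1 and PKO 2. WT libraries averaged 268 ± 63.0 CPM and PKO libraries 447 ± 47.4 CPM (SD, n = 3 per group). The edgeR log2 fold change was 0.74 ± 0.19 (SE; 95% interval 0.29 to 1.19), with an unadjusted p of 0.00597 and an adjusted p of 0.191, and the DESeq2 adjusted p was 0.0174. Without WT 1 it was 0.94, with an edgeR adjusted p of 0.0225.

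Leaving out single libraries moved the number of calls among the 10 genes. Without WT 1, edgeR called Igfbp3, Igfbp4 and Igfbp7 higher, where it called 3.55% of all genes tested higher. Without PKO 1 it called Igfbp7, beside 4.54% of all genes, and without both it called Igfbp3, Igfbp4 and Igfbp7, beside 10.2% of all genes. Without any other single library it called 0 of the 10. In the authors' deposited table, 4.65% of the genes with an adjusted p were higher at under 0.05, and the same 3 binding-protein genes were among them. The authors' deposited table gives log2 fold changes of 0.69 for Igfbp3 (adjusted p 0.0178), 1.12 for Igfbp4 (0.0460) and 1.49 for Igfbp7 (0.0188). That table was made from the same 6 libraries. Its value for Igfbp7 is smaller than the 3.53 fitted here by edgeR, and whether the authors shrank their fold changes is not given in the sources used here.

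**Figure D2:**
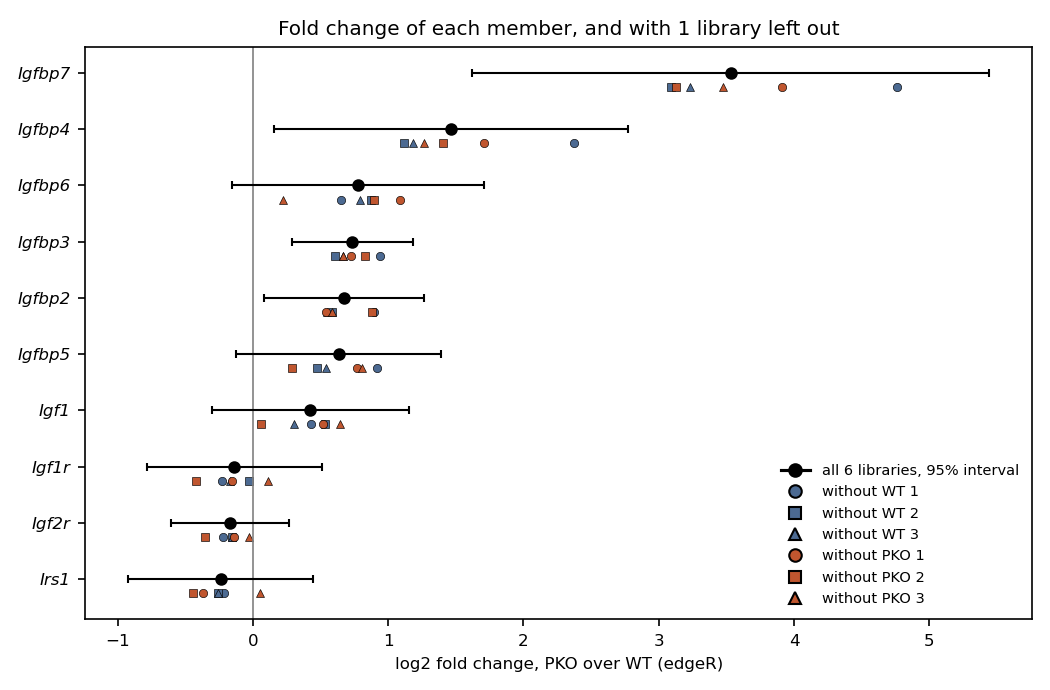
Log2 fold change (PKO over WT, edgeR) of each of the 10 genes with its 95% interval from all 6 libraries, and points for the same fit with each library left out in turn. The values of Igfbp7 lie highest in every fit, and those of Igf1r and Irs1 cross 0 when PKO 3 is left out.

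Igfbp2 and Igfbp5 lie tail to tail on chromosome 1, 5457 bases apart, with 0 genes of the table between them. Igfbp2 (chr1:72824503-72852474, plus strand) encodes a binding protein common in fetal tissues. It had 102, 69.5 and 65.6 CPM in WT 1 to WT 3 and 149, 88.0 and 140 CPM in PKO 1 to PKO 3. The groups overlapped at a single pair, WT 1 above PKO 2. The edgeR log2 fold change was 0.67 ± 0.25 (SE; 95% interval 0.08 to 1.26), with an unadjusted p of 0.0314, an adjusted p of 0.269 and a DESeq2 adjusted p of 0.145. Igfbp5 (chr1:72857932-72874884, minus strand), the binding protein linked to myoblast differentiation, had 1053, 593 and 671 CPM in WT 1 to WT 3 and 982, 1721 and 895 CPM in PKO 1 to PKO 3. WT 1 was above PKO 1 and PKO 3, and PKO 2 was the highest of all. Its log2 fold change was 0.64 ± 0.32 (SE; 95% interval -0.12 to 1.39), with adjusted p-values of 0.363 by edgeR and 0.280 by DESeq2. Without PKO 2 it was 0.29.

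Igfbp6 (chr15:102144362-102149511, plus strand) encodes a binding protein that prefers IGF2 to IGF1. It had 16.8, 23.1 and 21.0 CPM in WT 1 to WT 3 and 18.1, 29.3 and 56.9 CPM in PKO 1 to PKO 3. PKO 1 lay within the WT range and PKO 3 stood highest. The log2 fold change was 0.78 ± 0.39 (SE; 95% interval -0.15 to 1.71), with adjusted p-values of 0.364 by edgeR and 0.283 by DESeq2. Without PKO 3 it was 0.22.

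Per transcript length, the summed level of the binding-protein genes was higher in PKO. In the deposited FPKM, Igfbp2 to Igfbp7 summed to 457, 270 and 292 across WT 1 to WT 3, and to 569, 805 and 732.5 across PKO 1 to PKO 3. Every PKO library was above every WT library, and the ratio of the means, 702 ± 121 over 340 ± 102 FPKM (SD, n = 3 per group), was 2.07. It was 1.74 without Igfbp7 in the sum and 2.50 without WT 1, and as a sum over chosen genes it was given no test. Igfbp5 led in all 3 WT libraries and in PKO 2, and Igfbp3 in PKO 1 and PKO 3. Igfbp7 contributed 5.07%, 1.16% and 2.05% of the summed FPKM across WT 1 to WT 3 and 9.43%, 24.3% and 19.3% for PKO 1 to PKO 3. Ranked by mean FPKM among the 10 genes, Igfbp7 was number 8 in WT, at 10.8 ± 10.9 FPKM, and number 3 in PKO, at 130 ± 71.7 FPKM (SD, n = 3 per group). The share of Igfbp5 was 35.8% to 37.5% in WT and 36.3%, 28.8% and 21.0% in PKO 2, PKO 1 and PKO 3.

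**Figure D3:**
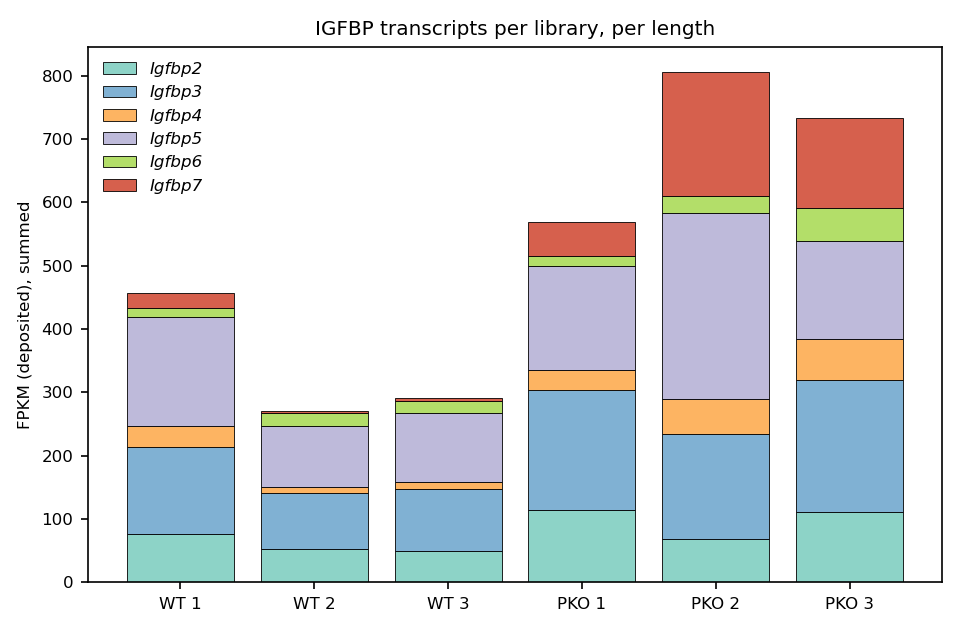
Deposited FPKM of Igfbp2 to Igfbp7 stacked for each of the 6 libraries, with 1 colour a gene. The stacks total 270 to 457 FPKM in WT and 569 to 805 in PKO, and the Igfbp7 segment is 1.16% to 5.07% of the WT stacks and 9.43% to 24.3% of the PKO stacks.

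Among the 4 genes that are not binding proteins, Igf2r had the highest level per length and Igf1 the lowest. Igf1 was at 1.21 ± 0.20 FPKM in WT and 1.69 ± 0.69 FPKM in PKO (SD, n = 3 per group), the lowest of the 10 genes in all 6 libraries. The other ligand, Igf2, was at 407 to 1040 FPKM in WT and 577 to 992 FPKM in PKO, so its FPKM was 234 to 853 times that of Igf1 across the 6 libraries. The log2 fold change of Igf2 was 0.16 ± 0.42 (SE), with an edgeR adjusted p of 0.865. Igf2r was at 66.9 ± 3.86 FPKM in WT and 61.8 ± 13.9 FPKM in PKO, and Igf1r at 20.9 ± 2.96 and 19.7 ± 7.23 FPKM (SD, n = 3 per group). The FPKM ratio of Igf2r to Igf1r was 2.87 to 4.01 over the 6 libraries. Irs1 followed at 10.6 ± 0.40 FPKM in WT and 9.33 ± 3.56 FPKM in PKO (SD, n = 3 per group).

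Igf1 (chr10:87858265-87937042, plus strand) had 8.80, 10.1 and 7.28 CPM in WT 1 to WT 3 and 10.2, 17.1 and 7.90 CPM in PKO 1 to PKO 3. PKO 2 stood highest and PKO 3 lay within the WT range, and without PKO 2 the log2 fold change of 0.43 ± 0.31 (SE; 95% interval -0.31 to 1.16, edgeR adjusted p 0.513) became 0.06. Igf1r (chr7:67952859-68226780, plus strand), the signalling receptor, had 84.2, 111 and 92.9 CPM in WT 1 to WT 3 and 89.2, 118 and 53.9 CPM in PKO 1 to PKO 3. Its log2 fold change was -0.14 ± 0.27 (SE; 95% interval -0.79 to 0.51), with an edgeR adjusted p of 0.822. PKO 3 was the lowest library and PKO 2 the highest, and without PKO 3 the sign turned, to 0.11.

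Igf2r (chr17:12682406-12769664, minus strand) had 568, 627 and 627 CPM in WT 1 to WT 3 and 518, 672 and 428 CPM in PKO 1 to PKO 3. PKO 2 was above all WT libraries, and PKO 1 and PKO 3 were below them. The log2 fold change was -0.17 ± 0.19 (SE; 95% interval -0.61 to 0.26), with an edgeR adjusted p of 0.659, and it was -0.35 without PKO 2 and -0.03 without PKO 3. The antisense gene Airn overlaps it by 28354 bases and had 349 to 627 counts per library; without the strand setting, reads of these genes cannot be told apart there. Irs1 (chr1:82233101-82291416, minus strand), the adaptor that links the receptor to PI3K, had 104, 96.8 and 96.7 CPM in WT 1 to WT 3 and 98.8, 106.5 and 46.5 CPM in PKO 1 to PKO 3. All but PKO 3 lay close together. The log2 fold change was -0.24 ± 0.29 (SE; 95% interval -0.92 to 0.44), with an edgeR adjusted p of 0.697, and it was 0.052 without PKO 3. The insulin receptor gene Insr had 76.1, 68.6 and 62.0 CPM in WT 1 to WT 3 and 57.7, 78.5 and 40.4 CPM in PKO 1 to PKO 3. PKO 3 was thus the lowest library for Igf1r, Igf2r, Irs1 and Insr. Irs2, the second main substrate, had 5.14, 14.7 and 15.7 CPM in WT 1 to WT 3 and 4.37, 18.3 and 6.93 CPM in PKO 1 to PKO 3, with overlapping groups and an edgeR adjusted p of 0.847.

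Of a list of other genes named for IGF or IGFBP binding and processing, 13 of 15 were in the table and 11 were tested. At an unadjusted p under 0.05, 7 of the 11 were higher in PKO and 0 lower (10.2% and 6.35% of all genes), while edgeR called 0 after adjustment and DESeq2 called 3 higher, Htra1, Esm1 and Igf2bp1, and 0 lower (4.73% and 0.933% of all genes). The median log2 fold change of the 11 was 1.53, with -0.02 over all genes. The list holds Igf2bp1, Igf2bp2 and Igf2bp3, which encode proteins that bind Igf2 mRNA, not IGF. Without these, in a count added after seeing the data, 6 of 8 genes were higher at an unadjusted p under 0.05, 0 were lower, and DESeq2 called Htra1 and Esm1. Htra1, a secreted protease that cuts IGFBP5, had 4.55, 3.08 and 4.87 CPM in WT 1 to WT 3 and 8.95, 42.6 and 32.7 CPM in PKO 1 to PKO 3. Every PKO library was above every WT library, with a log2 fold change of 2.75 ± 0.55 (SE), an edgeR adjusted p of 0.179 and a DESeq2 adjusted p of 1.24e-05. Pappa, the protease of IGFBP4, was barely counted in WT, with 1.18, 0 and 0.055 CPM, and had 1.39, 5.52 and 2.21 CPM in PKO. These correspond to 20, 0 and 1 reads in WT and 26, 97 and 43 reads in PKO, with an edgeR adjusted p of 0.285 and a DESeq2 adjusted p of 0.110. Stc1 and Stc2 encode stanniocalcins, which inhibit PAPP-A. Stc1 had 1.24 to 7.38 CPM in WT and 5.76 to 32.8 CPM in PKO, with an edgeR adjusted p of 0.296, and Stc2 had 64.7 to 74.2 CPM in WT and 48.2 to 87.5 CPM in PKO, with an edgeR adjusted p of 0.738. Pappa2, a second protease of this kind, had 1.11 to 1.83 CPM in WT and 1.28 to 2.56 CPM in PKO, with an edgeR adjusted p of 0.861. Esm1, a secreted proteoglycan with an IGFBP-type domain known from endothelium, had 0.059, 0.59 and 0.71 CPM in WT 1 to WT 3 and 4.0, 18.9 and 40.2 CPM in PKO 1 to PKO 3, with a DESeq2 adjusted p of 0.000315 and an edgeR adjusted p of 0.179.

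Downstream of the receptor, the 46 genes listed from the adaptors to mTOR were all tested. At an unadjusted p under 0.05, 5 were higher and 6 lower (10.2% and 6.35% of all genes). EdgeR called 0, and DESeq2 called 2 higher, Grb14 and Socs3, and 0 lower (4.73% and 0.933% of all genes). The log2 fold change was below 0 for 31 of the 46, as it was for 7256 of the 14025 genes tested. Its median was -0.12 over the 46 and -0.02 over all genes. Every PKO library lay above every WT library for 3 of them and below for 8 (11.8% and 9.7% of all genes). Grb10, an adaptor that restrains the receptor, had 131, 464 and 506 CPM in WT 1 to WT 3 and 68.7, 243 and 136 CPM in PKO 1 to PKO 3. WT 1 was below PKO 2 and PKO 3, and the log2 fold change was -1.30 ± 0.60 (SE), with an edgeR adjusted p of 0.329. Rptor, the mTORC1 scaffold, had 201, 222 and 221 CPM in WT 1 to WT 3 and 170, 161 and 121 CPM in PKO 1 to PKO 3, without overlap (log2 fold change -0.51 ± 0.15 SE, edgeR adjusted p 0.203). Shc1, a receptor adaptor, had 123 to 154 CPM in WT and 173.5 to 222 CPM in PKO, again without overlap (log2 fold change 0.53 ± 0.15 SE, edgeR adjusted p 0.192). Pik3r1, the regulatory subunit of PI3K, had log2 fold change 0.74 ± 0.25 (SE; edgeR adjusted p 0.233), and Pik3cd, a catalytic subunit, -0.80 ± 0.26 (SE; edgeR adjusted p 0.221). Phlpp1, an AKT phosphatase, had -0.42 ± 0.13 (SE; edgeR adjusted p 0.216), and Socs3, a suppressor of cytokine signalling, 2.15 ± 0.65 (SE; edgeR adjusted p 0.207, DESeq2 adjusted p 0.00959). Akt2, Foxo1 and Foxo3 had overlapping groups and edgeR adjusted p-values of 0.439, 0.635 and 0.542.

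Summed levels of stromal and endothelial markers were higher in every PKO library than in every WT library, also with any single gene left out of either sum, a check added after seeing the data. The summed CPM of the stromal list (17 of 18 genes in the table) ran from 370 to 504 for WT and reached 644, 2753 and 1780 for PKO 1 to PKO 3. Of the 12 stromal markers tested, 11 were higher at an unadjusted p under 0.05 (10.2% of all genes). Every PKO library lay above every WT library for 7 of them. In PKO 1, Dcn, Thy1, Osr1 and Cd248 lay within the WT range, and Fbln1 was below it. Col3a1 made up most of the stromal sum in WT (268 to 371.5 CPM) and in PKO 1 (458 CPM). Next in PKO 1 were Col1a2 and Dpep1, at 65.2 and 58.9 CPM. Leaving out single genes thus cannot show whether the remaining stromal markers were higher in PKO 1. The endothelial list (9 of 10 in the table) summed to 9.81 to 12.3 CPM in WT and 20.3 to 68.7 CPM in PKO. Most of this was Eng, at 5.85 to 8.87 CPM in WT and 12.5 to 54.6 CPM in PKO. Without Eng the sums were low, at 3.39 to 4.98 CPM in WT and 7.73 to 14.8 CPM in PKO. Of the 7 endothelial genes tested, 4 were higher and 0 lower at an unadjusted p under 0.05 (10.2% and 6.35% of all genes). The pericyte and smooth muscle list (9 of 9) summed to 348 to 369 CPM in WT and 410 to 606 CPM in PKO, but single genes carried this: without Rgs5 the sums were 308, 344 and 364 CPM for WT 1 to WT 3, with PKO 1 to PKO 3 at 304.5, 566.5 and 283 CPM, and without Pdgfrb the groups also overlapped. Of its 7 genes tested, 4 were higher and 1 lower at an unadjusted p under 0.05 (10.2% and 6.35% of all genes). Notch3 and Abcc9, the most abundant of them in WT, averaged 224 and 81.5 CPM in WT, against 123 and 67.7 CPM in PKO, with edgeR log2 fold changes of -0.86 ± 0.30 and -0.27 ± 0.31 (SE; adjusted p 0.249 and 0.683). Pdgfrb averaged 6.80 CPM in WT and 125 CPM in PKO, with every PKO library above every WT library (log2 fold change 4.19 ± 1.05 SE, edgeR adjusted p 0.191). The leukocyte list (9 of 10) summed to 6.62 to 7.14 CPM in WT and 12.0 to 17.9 CPM in PKO, and without Lyz2 to 5.25 to 6.94 and 6.87 to 9.22 CPM, with overlap. The tenocyte list (6 of 6) summed to 133 to 145 CPM in WT and 124 to 135 CPM in PKO. Of the adipocyte list, 1 of 6 genes was in the table, Lep, at 0 except for 0.17 CPM in PKO 2. The myogenic list (12 of 12) summed to 15850 to 18660 CPM in WT and 11470 to 16720 CPM in PKO. Its log2 fold changes were below 0 for all 12 genes, as for 7256 of the 14025 genes tested. Myod1 had 1468 to 1705 CPM in WT and 1147 to 1852 CPM in PKO, and Myog had 2510 to 2798 and 2239 to 2503 CPM. Both myogenic markers were present in all 6 libraries. Pax7, the marker of quiescent and early satellite cells, had 44.5 to 114 CPM in WT and 41.2 to 56.3 CPM in PKO.

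The collagen gene Col1a2 had 51.9, 28.9 and 31.9 CPM in WT 1 to WT 3 and 65.2, 856 and 499.5 CPM in PKO 1 to PKO 3. It shared with Igfbp7 the order of the PKO libraries, PKO 2 highest and PKO 1 lowest, and WT 1 as the highest WT library. Col3a1 did so too. It had 371.5, 268 and 295 CPM in WT 1 to WT 3 and 458, 680 and 643 CPM in PKO 1 to PKO 3. Col1a1 shared the PKO order, with 29.4, 859 and 249 CPM in PKO 1 to PKO 3. Its lowest WT library was WT 1, at 4.43 CPM against 12.1 and 17.1 CPM. Igf2bp1, on none of the marker lists, also had PKO 2 highest and PKO 1 lowest, at 4.53, 16.6 and 5.95 CPM in PKO 1 to PKO 3. WT 1 was its highest WT library too. The share of all genes with this order was not counted. Pdgfra and Rgs5 were picked out after their values were seen. Pdgfra, a defining stromal marker, had 2.13, 2.03 and 3.72 CPM in WT 1 to WT 3 and 5.12, 102 and 95.4 CPM in PKO 1 to PKO 3. In WT 1, where Igfbp7 was highest among the WT libraries, Pdgfra was within the range of WT 2 and WT 3. The pericyte marker Rgs5 was there at 41.9 CPM against 4.13 and 5.42, while Notch3, of the same list, was at 151.5 CPM against 262 and 257. For PKO 1 to PKO 3, Rgs5 read 106, 39.6 and 151 CPM. The stromal marker Dpt was at 0 in all WT libraries and in PKO 1. The part of other cells in the differences of the binding proteins was not tested, and in these bulk libraries fewer cells of a type and less RNA per cell cannot be told apart.

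**Figure D4:**
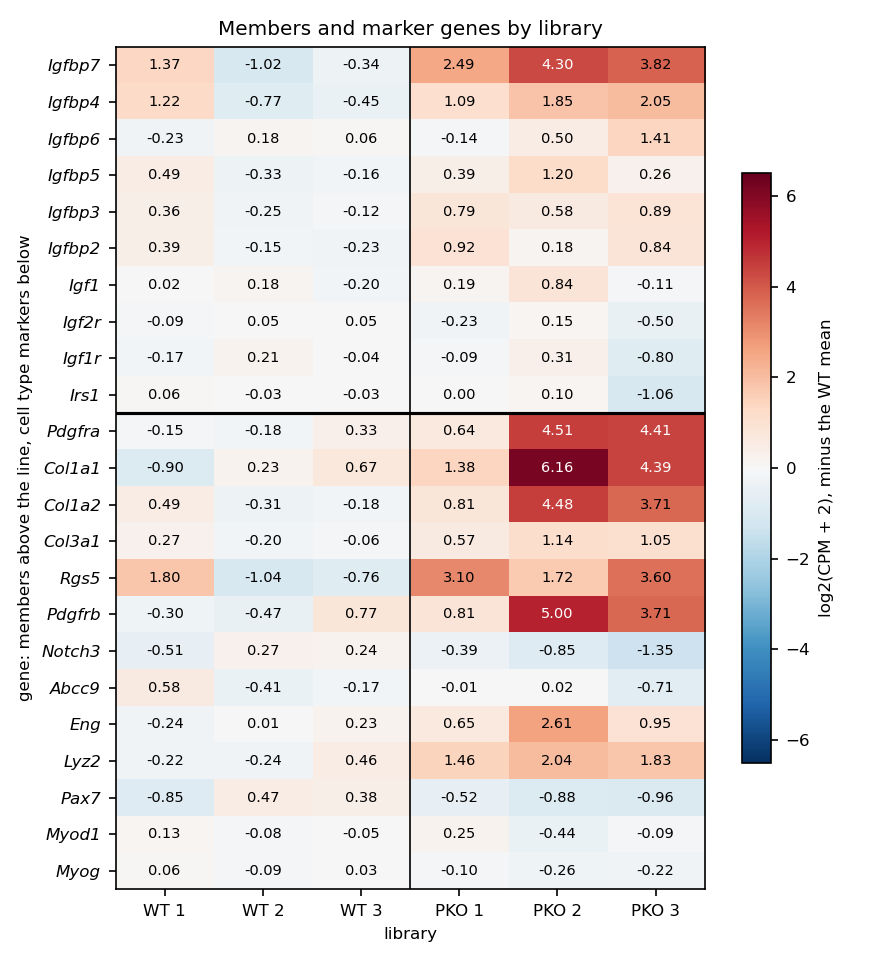
Heat map of log2(CPM + 2) minus the WT mean for the 10 genes (upper rows) and 13 cell type markers (lower rows) in the 6 libraries, with the value printed in each cell. Igfbp7 runs from -1.02 to 1.37 in WT and from 2.49 to 4.30 in PKO, and Col1a1, Col1a2, Pdgfra and Pdgfrb are highest in PKO 2 and PKO 3.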

How the data were processed

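Polyadenylated RNA of 6 libraries was sequenced. Groups and numbers came from the sample titles. Per the submitters' processing notes, reads were mapped with TopHat2 to GRCm38 (mm10) and counted with HTSeq 0.6.1. For the counting, neither annotation version nor strand setting is given in the sources used here. The deposited counts are whole reads per gene and were used in all tests. The authors computed the deposited FPKM from counts and a gene length, and these served to compare levels between genes. The deposited normalized signal was not used. The authors' log2 fold changes and p-values were made, per the series text, with DESeq2 or edgeR and appear only as the authors' deposited table. There were 0 columns of other samples.

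EdgeR 4.0.16 (R 4.3.3) was the main test: filterByExpr, TMM factors, a robust quasi-likelihood fit on genotype alone, and Benjamini-Hochberg adjustment over 14025 genes, with a threshold of 0.05. Levels are CPM, and log2 CPM used a prior count of 2. Alternatives were DESeq2 1.42.0, limma-voom (limma 3.58.1), other scalings and filters, a replicate block and left-out libraries. The code was tested on simulated data. Total counts of 15580176 to 18839151 leave counting error below the library-to-library spread except at the lowest counts.

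The members and lists were chosen with earlier results of these data known. Named genes are all 10 members, Pnpla2, 14 pathway genes (Igfbp1 is not analysed here), the 6 other pathway genes with the smallest edgeR p, Myod1, Myog, Pax7, and, per other cell type, the 3 markers of highest mean CPM, of which the text names some. Igf2bp1 and Grb14 were added because DESeq2 called them, and Pdgfra, Rgs5 and Dpt after their values were seen.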

Additional observations from a re-analysis of the deposited data

How the results depend on the processing

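EdgeR called 0 of the 10 genes and 0 of 14025 genes, and also 0 of the 10 with limma-voom, RLE factors, plain library sizes, all genes kept, or only genes averaging at least 1 CPM. DESeq2 called 3 of the 10 (Igfbp3, Igfbp4 and Igfbp7) and 917 genes in all. With each library left out in turn, the calls ran from 0 to 3 among the 10 and from 0 to 1000 over all genes; without WT 1 there were 3 and 1000, and without PKO 1 there were 1 and 737. Without WT 1 and PKO 1 together there were 3 and 2266. The share of calls that were higher in PKO was 83.5% by DESeq2, 51.7% without WT 1, 89.4% without PKO 1 and 64.5% without both. The causes were not tested. Directions held for 8 of the 10 genes under all 14 alternatives; with libraries left out, Igf1r ranged from -0.42 to 0.11 and Irs1 from -0.44 to 0.052 on the log2 scale, above 0 without PKO 3. The FPKM sum of the binding proteins, 2.07 times higher in PKO, ranged from 1.88 to 2.50 with a library left out, the latter without WT 1, and was 2.74 without WT 1 and PKO 1. The replicate block called 0 of the 10 and 1 gene in all. Same-numbered libraries are linked in the sample titles only by that number. Their deviations from the group means correlated at 0.10, -0.03 and 0.13, and those of the other pairs at -0.21 to 0.12. With 3 libraries per group, these values cannot decide whether such libraries were paired. With 3 libraries per group, the intervals of Igf1r, Igf2r, Irs1 and Igf1 include differences in either direction.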
